A study of Mus musculus with 12 samples.

Results

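Killer lectin-like receptors are C-type lectin-like proteins of natural killer (NK) cells and of activated CD8+ T cells. The 8 genes described here, Klrk1, Klrd1, Klrc1, Klrc2, Klre1, Klrg1, Klra7 and Klrb1c, were chosen by symbol. All 8 were present in both deposited count tables, which held 13948 gene symbols for the co-cultured cells and 35556 for the restimulated cells, 13625 of them in common.

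The cells were CD8+ T lymphocytes from spleens of OT-I mice, which carry a transgenic T cell receptor for an ovalbumin peptide. They were expanded with antibodies to CD3e and CD28 and IL-2, with ATRA (all-trans retinoic acid, a vitamin A metabolite, 5 ng/mL) or an equal volume of its solvent DMSO (CTRL), and kept for a further 5 days. All cells then spent 72 h at 1% oxygen with GL261 glioma cells that express ovalbumin, a culture meant to induce exhaustion, and no ATRA or DMSO was added in that phase. Live CD45.2+ cells were sorted directly (CTRL co-culture and ATRA co-culture) or after 24 h of renewed CD3e stimulation (CTRL restimulated and ATRA restimulated), with 3 libraries in each of the 4 groups. The labels do not say whether libraries came from separate mice or whether mice were pooled, so the p-values measure only the spread between libraries, which may be technical. CTRL and ATRA libraries with the same replicate number carry the same batch label, and the co-cultured and restimulated libraries carry different batch labels.

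NKG2D, encoded by Klrk1, is an activating receptor for stress-induced MHC-like ligands and signals through the adaptor DAP10, encoded by Hcst. CD94, encoded by Klrd1, forms heterodimers with NKG2A (Klrc1), which carries inhibitory motifs, or NKG2C (Klrc2), which signals through the adaptor DAP12 (Tyrobp), and both heterodimers bind the class I molecule Qa-1 (H2-T23). KLRE1 pairs with KLRI1 or KLRI2, KLRG1 is an inhibitory receptor for cadherins that marks terminal effector T cells, Ly49G (Klra7) is an inhibitory receptor for class I MHC, and NK1.1 (Klrb1c) is the classical surface marker of NK cells in C57BL/6 mice.

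In RefSeq (GRCm38.p6) the 8 genes lie on chromosome 6. Klre1, Klrd1 and Klrk1 are consecutive protein-coding genes there, and Klrc3 alone separates Klrk1 from the neighbours Klrc2 and Klrc1. Promoter sequences from 250 bases before to 50 bases after an annotated start were matched in RefSeq for 6 of the 8 genes, all but Klrd1 and Klrg1. Those of Klrk1, Klrc1 and Klre1 are shown because, of these close neighbours, Klrk1 and Klre1 were lower and Klrc1 higher in restimulated ATRA cells. They are written 5′ to 3′ on the strand of the gene, and for Klre1 the first of its 2 listed starts is used. Capitals mark matches on either strand to AGGTCA (the half-site of retinoic acid receptors), TGTGGT (RUNX factors), GGTGTGA (T-box factors) or TGANTCA (AP-1), words that do not overlap each other in these windows.
Klrk1, chr6:129623815-129624114, minus strand: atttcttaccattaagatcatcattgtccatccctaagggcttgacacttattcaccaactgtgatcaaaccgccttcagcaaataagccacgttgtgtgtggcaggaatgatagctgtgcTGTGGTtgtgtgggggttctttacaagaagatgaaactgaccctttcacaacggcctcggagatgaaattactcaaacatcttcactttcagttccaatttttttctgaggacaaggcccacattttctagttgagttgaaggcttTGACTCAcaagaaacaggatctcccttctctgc
Klrc1, chr6:129678924-129679223, minus strand: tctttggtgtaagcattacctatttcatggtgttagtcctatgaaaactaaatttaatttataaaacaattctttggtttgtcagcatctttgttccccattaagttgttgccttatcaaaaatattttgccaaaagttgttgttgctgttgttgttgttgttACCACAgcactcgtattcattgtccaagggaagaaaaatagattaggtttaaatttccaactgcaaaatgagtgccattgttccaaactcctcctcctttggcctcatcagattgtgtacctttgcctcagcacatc
Klre1, chr6:129577963-129578262, plus strand: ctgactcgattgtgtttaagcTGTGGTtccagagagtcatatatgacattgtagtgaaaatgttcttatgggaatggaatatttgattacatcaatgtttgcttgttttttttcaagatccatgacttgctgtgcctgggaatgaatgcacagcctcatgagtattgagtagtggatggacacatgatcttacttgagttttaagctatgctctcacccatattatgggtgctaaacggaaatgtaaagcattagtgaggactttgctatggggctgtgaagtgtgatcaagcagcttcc

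The RUNX word occurred in each of these 3 windows, as TGTGGT in Klrk1 and Klre1 and as its reverse complement in Klrc1, and the AP-1 word in that of Klrk1 alone. The retinoic acid receptor half-site and the T-box word matched none of the 3 windows. In the windows not printed, the RUNX word occurred for Klrc2 and Klrb1c but not for Klra7 or at the other start of Klre1, the AP-1 word for Klrc2 and the retinoic acid receptor half-site for Klrb1c, and the T-box word for none. Over all 32851 promoter windows of this length, 16.8% held the RUNX word, 7.81% the AP-1 word, 16.3% the retinoic acid receptor half-site and 3.98% the T-box word. A match is a description of letters and not a site of binding.

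Total counts were 23558244 to 26111497 per co-cultured library and 16288111 to 20115836 per restimulated library. Levels are CPM, counts relative to the library total after TMM scaling. In the shallowest library 3 counts amount to 0.183 CPM, a floor that covers counting error only. ATRA co-culture replicate 3 stood apart from its group, with a correlation across genes of 0.948 and 0.964 with replicates 1 and 2 against 0.994 between them, and CTRL co-culture replicate 1 did so less, at 0.983 and 0.985 against 0.997. T cell identity was clear from the markers. Cd3e stood at 165 to 218 CPM and Cd8a at 149 to 375 CPM over the 12 libraries, and the CD8 T cell markers summed to 3273 to 4322 CPM after co-culture (12 of 14 markers in that table) and to 2926 to 3486 CPM after restimulation (all 14). Ncr1, the defining NK receptor gene, reached at most 0.0611 CPM in restimulated libraries. It was absent from the co-culture table, but so were the T cell receptor genes Trac and Trbc1, so absence there says nothing about its level.

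**Figure D1:**
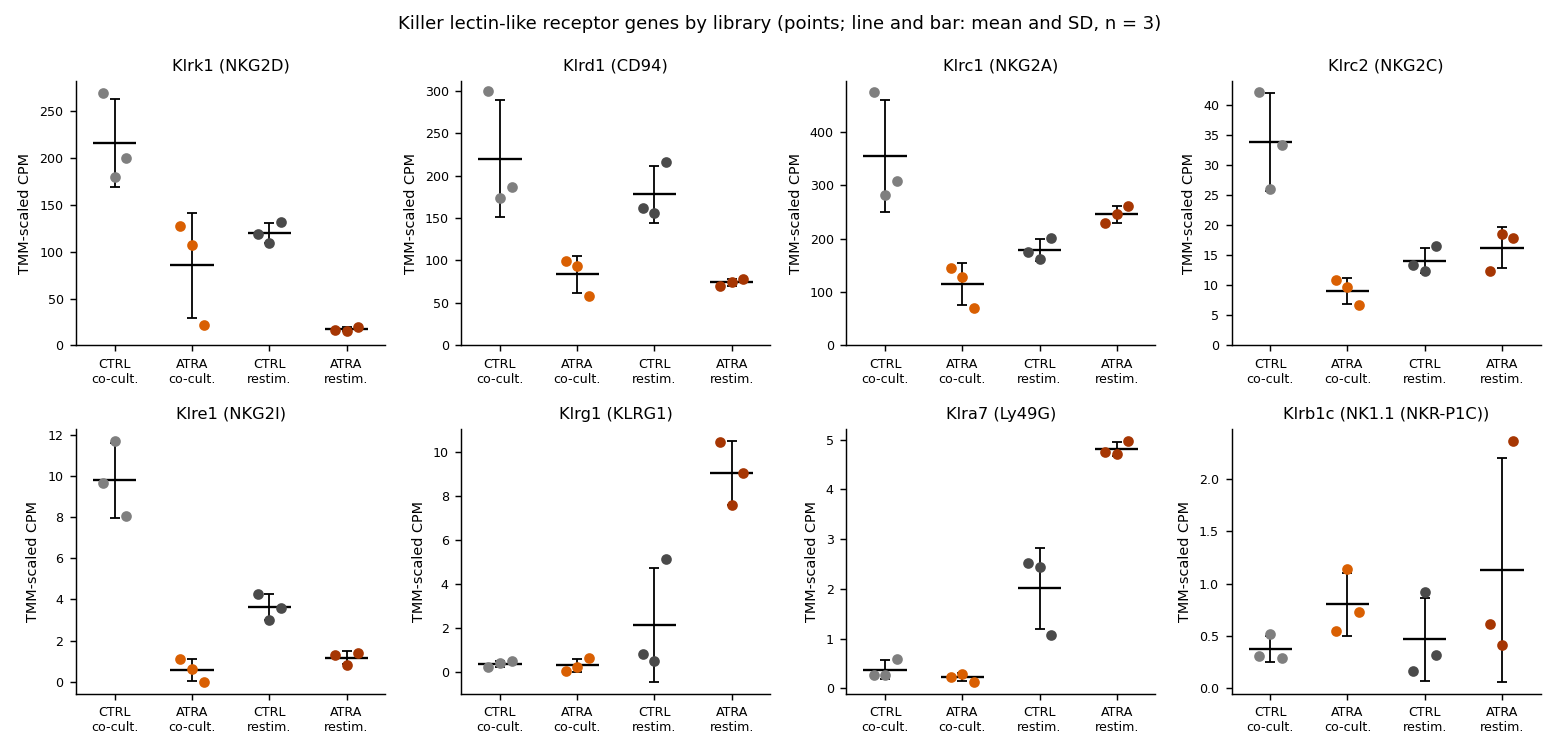
TMM-scaled CPM (vertical axes, linear) of the 8 genes in each library (points) of the 4 groups, with the mean and SD of 3 libraries as line and bar. Klrk1 is lowest in restimulated ATRA cells, at 15.6 to 19.4 CPM, where Klrc1 stands at 229 to 262 CPM, and Klrg1 and Klra7 reach their highest levels in that group.

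The first comparison asked how earlier ATRA exposure altered these genes in cells sorted directly after co-culture. Transcripts of CD94 and its partner chains NKG2A and NKG2C, and of KLRE1, were lower in ATRA cells. Klrd1, Klrc1, Klrc2 and Klre1 fell, 4 of the 7 genes tested, where 15.5% of all 12111 tested genes were called lower. Judged by counts, Klre1 passed the filter on low counts only through its CTRL libraries. Its call and its part in this number therefore support nothing. No member was called higher, against 18.1% of all genes, and 33.6% of all genes were called in either direction. The median log2 fold change of the 7 tested members was -1.39 against 0.01 over all tested genes. The threshold for a call was an adjusted p of 0.05 (edgeR quasi-likelihood test, Benjamini-Hochberg over all tested genes). In bulk RNA, fewer cells that carry a transcript and less of it per cell cannot be told apart.

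Klrc1, the inhibitory chain, had 476, 283 and 308 CPM in the CTRL libraries and 146, 128 and 70.7 CPM in the ATRA libraries. The highest ATRA library was below the lowest CTRL library, and the log2 fold change was -1.63 (SE 0.32, adjusted p = 0.0114). Its partner chain Klrd1 stood at 299, 174 and 187 CPM in CTRL and at 99.4, 93.2 and 58.4 CPM in ATRA libraries, again without overlap (-1.39, SE 0.28, adjusted p = 0.0126). Klrc2, the activating chain, was about an order of magnitude below Klrc1 in counts and fell from 33.9 ± 8.14 to 9.08 ± 2.15 CPM (SD, n = 3), a log2 fold change of -1.90 (SE 0.25, adjusted p = 0.00336).

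Reads of Klrc1 and Klrc2 can be hard to tell apart. Of all 50-base stretches in the GENCODE M21 transcripts of Klrc1, 36.6% also occur in transcripts of Klrc2, so part of their shared change may come from the assignment of reads between them, which was not tested. Of those of Klrc2, 12.4% also occur in transcripts of Klrc1. The corresponding share with other genes of the family was 38.6% for Klrc1, 16.3% for Klrc2, 12.3% for Klra7 and 5.99% for Klrb1c. It was 0 for Klrk1, Klrd1, Klre1 and Klrg1.

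Klre1 had the widest ATRA difference of the 7 in this state. It had 247, 312 and 219 counts in the CTRL libraries, and 28, 15 and 0 counts in the ATRA libraries (9.79 ± 1.82 and 0.574 ± 0.548 CPM). The log2 fold change was -4.06 (SE 0.81, adjusted p = 0.0123), and without CTRL replicate 2 the call ended (-3.93, adjusted p = 0.0521). Since Klre1 passed the filter here only through CTRL libraries, these values are a description and support nothing.

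Klrk1, which encodes NKG2D, did not pass in this state although its groups did not overlap. The CTRL libraries had 270, 180 and 200 CPM. The ATRA libraries had 127, 107 and 21.4 CPM, with replicate 3 far below the others (log2 fold change -1.34, SE 0.59, adjusted p = 0.117). Without ATRA replicate 3 the difference was smaller and passed (-0.88, adjusted p = 0.0108). It also passed without both libraries that stood apart (-0.69, adjusted p = 4.9e-05), with DESeq2 (adjusted p = 0.0312) and when all 12 libraries shared the estimate of spread (adjusted p = 0.0271).

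The other members were near the limit of detection after co-culture. Klrb1c, the NK1.1 gene, had 8, 14 and 8 counts in CTRL and 14, 27 and 17 in ATRA libraries (log2 fold change 1.08, SE 0.46, adjusted p = 0.106). Klrg1 had 5, 11 and 13 counts in CTRL and 1, 5 and 14 in ATRA libraries (-0.37, SE 0.83, adjusted p = 0.754). The sign of this value changed between settings, from -1.82 to 0.16, and no difference was detectable at this depth. Klra7 had 3 to 16 counts in the 6 libraries and was below the filter on low counts. CTRL and ATRA libraries were fully separated for 6 of the 7 tested members, as they were for 57.0% of all tested genes.

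The second comparison asked how the earlier ATRA exposure altered these genes in restimulated cells. Here the members separated. Klrk1, Klrd1 and Klre1 were lower in ATRA cells while Klrc1 and Klra7 were higher, that is 3 called lower and 2 higher of 8 tested, where 30.8% and 31.8% of all 12783 tested genes were called lower and higher and 62.6% in either direction. The counts of calls thus do not set the members apart from the background, and their median log2 fold change was 0.33 against 0.02 over all genes. Libraries did not overlap for 6 of the 8 members, against 68.8% of all tested genes.

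Klrk1 stood at 119, 109 and 131 CPM in the restimulated CTRL libraries and at 16.0, 15.6 and 19.4 CPM in the restimulated ATRA libraries. The ATRA libraries were close to each other and all far below the CTRL libraries, with a log2 fold change of -2.82 (SE 0.11, adjusted p = 1.1e-09). Klrd1 had 162, 155 and 216 CPM in CTRL and 69.4, 74.9 and 78.1 CPM in ATRA libraries (-1.26, SE 0.12, adjusted p = 7.7e-06). Klre1 fell from 3.62 ± 0.635 to 1.18 ± 0.300 CPM (-1.62, SE 0.34, adjusted p = 0.00125).

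Klrc1 moved the other way from its partner Klrd1. It had 174, 162 and 201 CPM in CTRL and 229, 247 and 262 CPM in ATRA libraries, so that the lowest ATRA library lay above the highest CTRL library (log2 fold change 0.46, SE 0.09, adjusted p = 0.000548). With all 12 libraries sharing the estimate of spread the value was 0.45 and the call ended (adjusted p = 0.133). Klrc2 stood at 13.4, 12.5 and 16.5 CPM in CTRL and at 12.3, 18.6 and 17.9 CPM in ATRA libraries, with overlap and no call (0.20, SE 0.18, adjusted p = 0.358).

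Klra7, the Ly49G gene, had 45, 40 and 20 counts in CTRL and 85, 90 and 99 counts in ATRA libraries. It rose from 2.01 ± 0.815 to 4.81 ± 0.138 CPM (log2 fold change 1.26, SE 0.33, adjusted p = 0.00533). Klrg1 had 14, 8 and 95 counts in the CTRL libraries and 187, 145 and 180 in the ATRA libraries. All ATRA libraries were above all CTRL libraries, but CTRL replicate 3 stood well above the other CTRL libraries, and the difference did not pass (2.06, SE 0.84, adjusted p = 0.0823). Without CTRL replicate 3 the log2 fold change was 3.79 (adjusted p = 2e-06), and Klrg1 also passed with DESeq2 (adjusted p = 0.0497), with limma on log2(TPM + 1) (adjusted p = 0.0107) and with the spread shared over 12 libraries (adjusted p = 0.0333). Judged by counts, Klrg1 passed the filter here only through its ATRA libraries, so its value and these passes support nothing. Klrb1c had 3, 15 and 6 counts in CTRL and 11, 8 and 47 in ATRA libraries, with overlap (1.29, SE 0.78, adjusted p = 0.174, and values from 0.16 to 2.17 with single libraries left out). Over all settings the sign of the Klrb1c value changed, with a lowest value of -0.05.

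**Figure D2:**
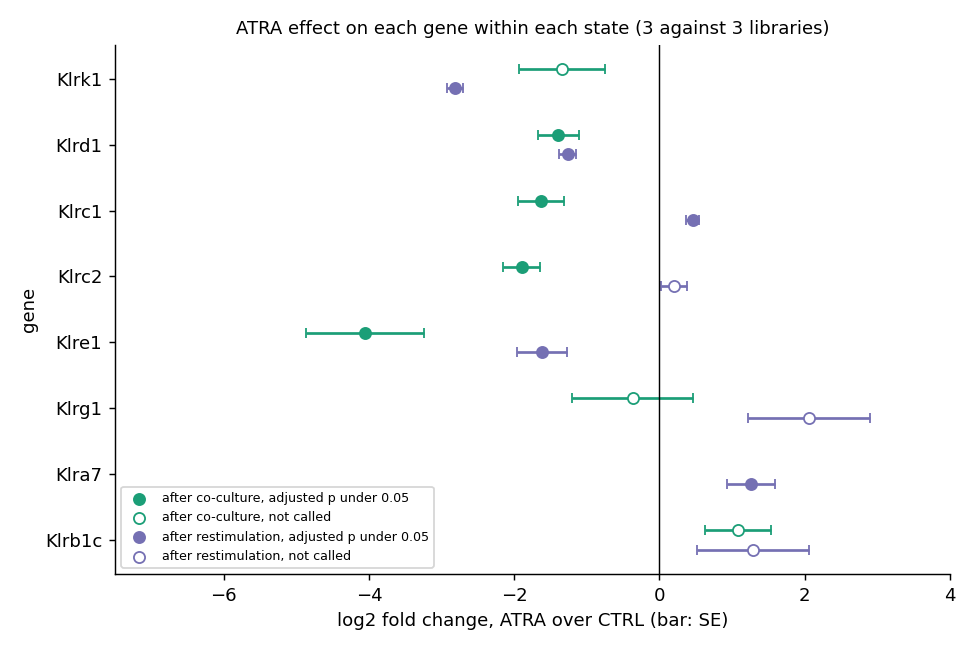
Log2 fold change of ATRA over CTRL (horizontal axis, bars give the SE) for each gene after co-culture and after restimulation, filled where called at an adjusted p under 0.05. Klrc1 lies at -1.63 after co-culture and at 0.46 after restimulation, Klrk1 lies at -2.82 after restimulation, and Klra7 was not tested after co-culture.

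The interaction of the 12 libraries tested whether the ATRA difference itself differed between the states. It was more positive after restimulation for Klrc1 (2.09, SE 0.34, adjusted p = 0.000413), Klrc2 (2.10, SE 0.32, adjusted p = 0.00022), Klre1 (2.44, SE 0.84, adjusted p = 0.0307) and Klra7 (2.01, SE 0.64, adjusted p = 0.021), 4 of 8 tested members, where 23.6% of the 12364 tested genes were called in that direction. No member was called in the other direction, against 25.5% of all genes, and 49.2% were called in either direction. Klra7 passed the filter on low counts only through its restimulated libraries, so its call and its part in these counts support nothing, and without it 3 of 7 members were called. Its call ended with the batch label as replicate block (2.03, adjusted p = 0.0554) and without CTRL co-culture replicate 3 (1.53, adjusted p = 0.0815). The Klre1 call ended without any 1 of CTRL co-culture replicate 2, ATRA co-culture replicate 2, CTRL restimulated replicates 2 or 3, or ATRA restimulated replicates 1 or 3, with log2 values of 2.29 to 2.50.

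For Klrd1 the interaction was 0.13 (SE 0.32, adjusted p = 0.762), and its sign changed between settings, from -0.35 to 0.30. For Klrk1 the interaction was -1.47 (SE 0.63, adjusted p = 0.074), and it passed without ATRA co-culture replicate 3 (-1.93, adjusted p = 9.4e-06). For Klrg1 it was 2.43 (SE 1.25, adjusted p = 0.127), and it passed under a replicate block (3.18, adjusted p = 0.0385) and when CTRL restimulated replicate 3 was left out (4.17, adjusted p = 0.00362). By its counts Klrg1 passed the filter on all 12 libraries only through restimulated libraries, so its value and its pass under the block support nothing. For Klrb1c it was 0.20 (SE 1.04, adjusted p = 0.888), and its sign changed when single libraries were left out, with a lowest value of -0.93.

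Ratios of counts within a library, which do not depend on the scaling between libraries, show how the chains moved against each other. The Klrc1 to Klrd1 ratio was 1.59, 1.63 and 1.65 in CTRL co-culture libraries and 1.47, 1.37 and 1.21 in ATRA co-culture libraries. In restimulated libraries it was 1.08, 1.04 and 0.929 for CTRL and 3.30, 3.30 and 3.35 for ATRA. Restimulated ATRA libraries thus had a mean ratio 3.27 times that of their controls, and the ATRA libraries of the co-culture 0.832 times that of theirs.

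The Klrc1 to Klrk1 ratio, of an inhibitory to an activating receptor transcript, was 1.46, 1.48 and 1.53 in restimulated CTRL and 14.3, 15.8 and 13.5 in restimulated ATRA libraries. In co-cultured cells it was 1.54 to 1.76 in CTRL libraries and 1.15, 1.19 and 3.31 in ATRA libraries, so the groups overlapped around a high ATRA replicate 3. The Klrk1 to Klrd1 ratio fell from 0.683 ± 0.068 in restimulated CTRL to 0.229 ± 0.020 in restimulated ATRA libraries, without overlap. The Klrc2 to Klrc1 ratio stayed within 0.0537 to 0.109 over the 12 libraries. With 3 libraries against 3, the two-sided exact permutation test of a log ratio cannot go below p = 0.1, which was its value for all of these comparisons in restimulated cells and for Klrc1 to Klrd1 in co-cultured cells (0.16 adjusted over the 8 comparisons made).

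**Figure D3:**
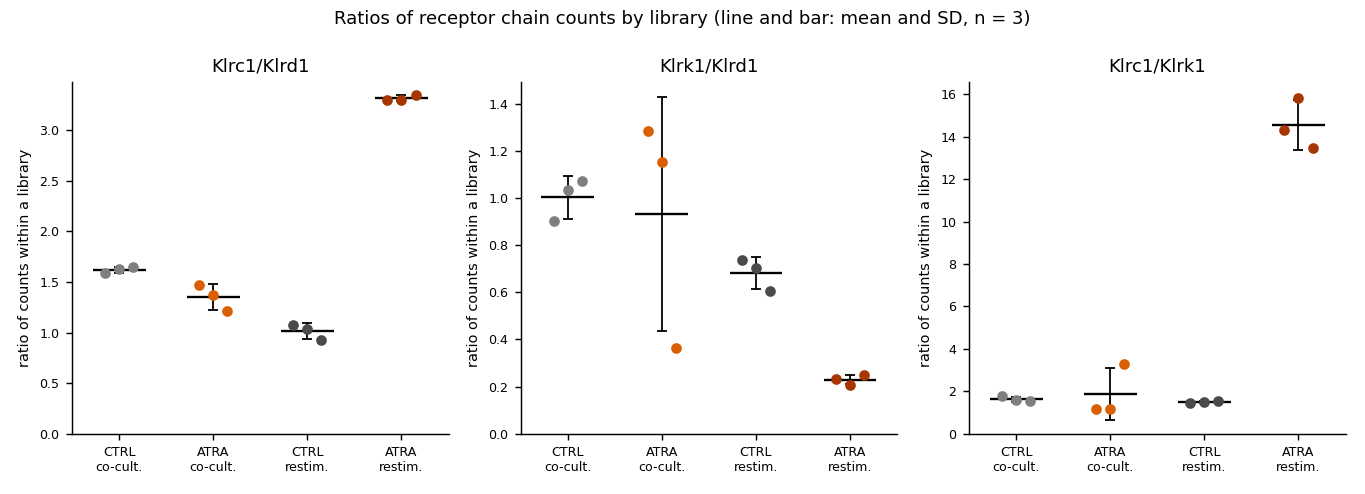
Ratio of counts of 2 receptor genes within a library (vertical axes, linear from 0) in each library (points) of the 4 groups, with the mean and SD as line and bar. The Klrc1 to Klrd1 ratio is between 3.30 and 3.35 in restimulated ATRA libraries and at most 1.65 in the other libraries.

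Levels can be compared between genes only per length, which the deposited TPM table (transcript abundance scaled for gene length) allows for restimulated cells. In CTRL cells Klrd1 was highest, with libraries at 517, 579 and 639 TPM, followed by Klrc1 at 336, 396 and 398 TPM and Klrk1 at 214, 234 and 236 TPM, and these ranges did not overlap. Klrc2 followed at 14.7 ± 0.832 TPM, then Klre1 (6.65 ± 1.57), Klra7 (4.30 ± 2.16), Klrg1 (2.14 ± 2.56) and Klrb1c (0.631 ± 0.397). Each neighbouring pair from Klre1 down overlapped in its libraries.

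In restimulated ATRA cells the order of the leading genes was different. Klrc1 was highest at 459, 498 and 500 TPM, and Klrd1 followed at 206, 208 and 217 TPM. Klrk1 stood at 19.0, 23.5 and 29.4 TPM and overlapped with Klrc2 at 12.4, 18.9 and 19.4 TPM. Klrg1 (9.07 ± 1.45) and Klra7 (8.56 ± 0.469) overlapped with each other and lay above Klre1 (1.88 ± 0.427) and Klrb1c (0.980 ± 0.863). On this scale the TPM of Klrc1 was 0.622 to 0.683 times that of Klrd1 in CTRL columns and 2.23 to 2.40 times in ATRA columns.

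**Figure D4:**
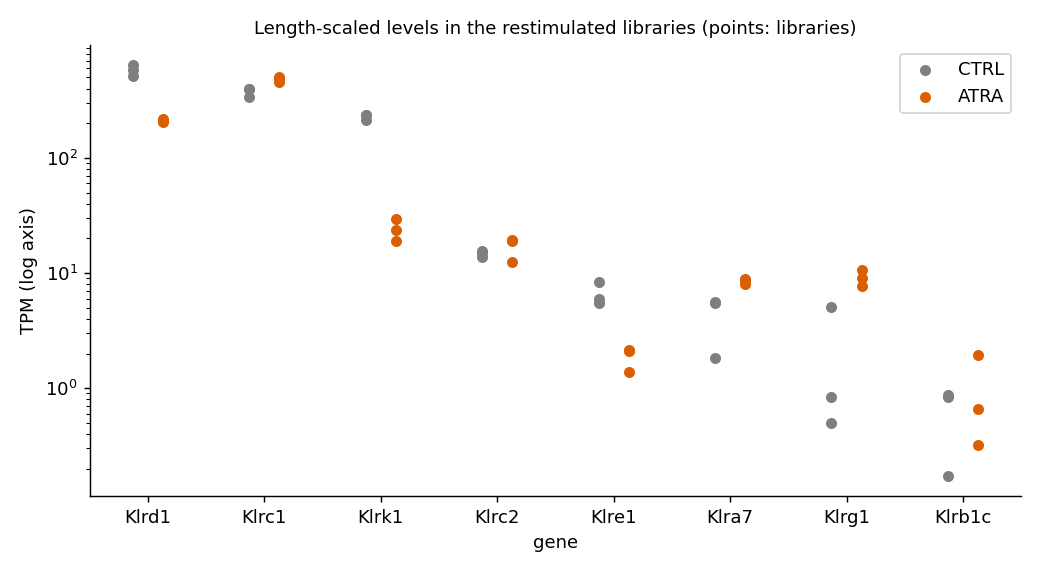
TPM (vertical axis, log scale) of the 8 genes in the restimulated libraries, 3 CTRL and 3 ATRA points for each gene. Klrd1 is the highest gene in CTRL, at 517 to 639 TPM, and Klrc1 in ATRA libraries, at 459 to 500 TPM.

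Restimulated and co-cultured cells were also compared within each treatment, a comparison in which the state, the batch set and the table cannot be told apart. In CTRL cells Klrc1 (log2 fold change -1.09, adjusted p = 0.00541), Klrc2 (-1.36, adjusted p = 0.000803) and Klre1 (-1.53, adjusted p = 0.0468) were lower, and Klra7 (2.31, adjusted p = 0.00181) and Klrg1 (2.45, adjusted p = 0.0471) higher in restimulated libraries. These are 3 lower and 2 higher of 8, against 16.6% and 15.9% of all tested genes and 32.5% in either direction. Libraries did not overlap for 5 members, against 51.5% of all genes. In the fit of 12 libraries Klra7 passed the filter only through restimulated libraries. By its counts so did Klrg1, with at most 14 in any co-cultured library. The calls of both genes here and in ATRA cells, and their part in the numbers called, are descriptions and support nothing. The Klre1 call ended in 11 and the Klrg1 call in 10 of 16 alternative settings, and Klrg1 was at 0.71 without CTRL restimulated replicate 3.

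In ATRA cells Klrc1 (1.00, adjusted p = 0.00365), Klrc2 (0.74, adjusted p = 0.014), Klrg1 (4.88, adjusted p = 0.000602) and Klra7 (4.32, adjusted p = 8.8e-06) were higher and Klrk1 (-2.42, adjusted p = 0.000918) lower in restimulated libraries, 4 and 1 of 8 against 29.8% and 31.5% of all tested genes and 61.3% in either direction. Libraries did not overlap for 5 members, against 67.1% of all genes. The Klrc2 call ended without ATRA restimulated replicate 2 (0.63) or 3 (0.66). Klrd1 was not called in CTRL (-0.40, adjusted p = 0.197) or ATRA cells (-0.27, adjusted p = 0.319). These 2 comparisons share their libraries with the ATRA comparisons above.

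Other killer lectin-like genes and their neighbours in the NK gene complex, 33 symbols, gave 4 lower and 1 higher of 11 tested after co-culture (median log2 fold change -1.11, all genes 0.01) and 4 lower and 6 higher of 13 tested after restimulation (median -0.05, all genes 0.02). The background for this and the following lists is 15.5% lower and 18.1% higher of all tested genes after co-culture, and 30.8% lower and 31.8% higher after restimulation. Klri2, a partner chain of KLRE1, had 2239, 916 and 1061 counts in CTRL and 45, 58 and 22 in ATRA co-culture libraries (-4.96, SE 0.52, adjusted p = 0.00161). It was also lower in restimulated ATRA cells, at 14.8 ± 1.81 against 3.49 ± 1.50 CPM (-2.07, SE 0.29, adjusted p = 9.7e-05), the same direction as Klre1 in both states. Klrh1 had 179, 91 and 110 counts in CTRL and 2, 0 and 0 in ATRA co-culture libraries (adjusted p = 0.00168). It had 0 to 5 counts in every restimulated library. Klrh1 thus passed the filter after co-culture only through CTRL libraries. Its call, and its part in the numbers called for this list, support nothing.

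Klra5, of the Ly49 family like Klra7, had 496, 415 and 395 counts in CTRL and 150, 118 and 57 in ATRA libraries after co-culture (-1.89, SE 0.33, adjusted p = 0.00783). After restimulation the order was the other way, with 50, 48 and 39 counts in CTRL and 264, 340 and 372 in ATRA libraries (2.71, SE 0.20, adjusted p = 2.1e-07), and the interaction was 4.60 (SE 0.39, adjusted p = 2.1e-06). In restimulated cells Klra2 had 1, 7 and 6 counts in CTRL and 39, 71 and 49 in ATRA libraries (3.35). Klra4 had 7, 3 and 0 in CTRL and 27, 29 and 45 in ATRA libraries (3.17). Klra3 was lower in ATRA cells, with 108, 57 and 79 against 32, 3 and 38 counts (-1.84). By these counts Klra2 and Klra4 passed the filter only through ATRA libraries, and Klra3 only through CTRL libraries. Their calls, and their part in the numbers called for this list, therefore support nothing. Klra2, Klra3 and Klra4 are named here after their values were seen. The 3 listed genes with the smallest p after restimulation were Olr1, an oxidised LDL receptor (4.02), Clec12a, an inhibitory lectin (-6.32), and Cd69, an activation marker (2.36). Clec12a too passed the filter only through CTRL libraries, so its call and its part in the numbers called support nothing.

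**Figure D5:**
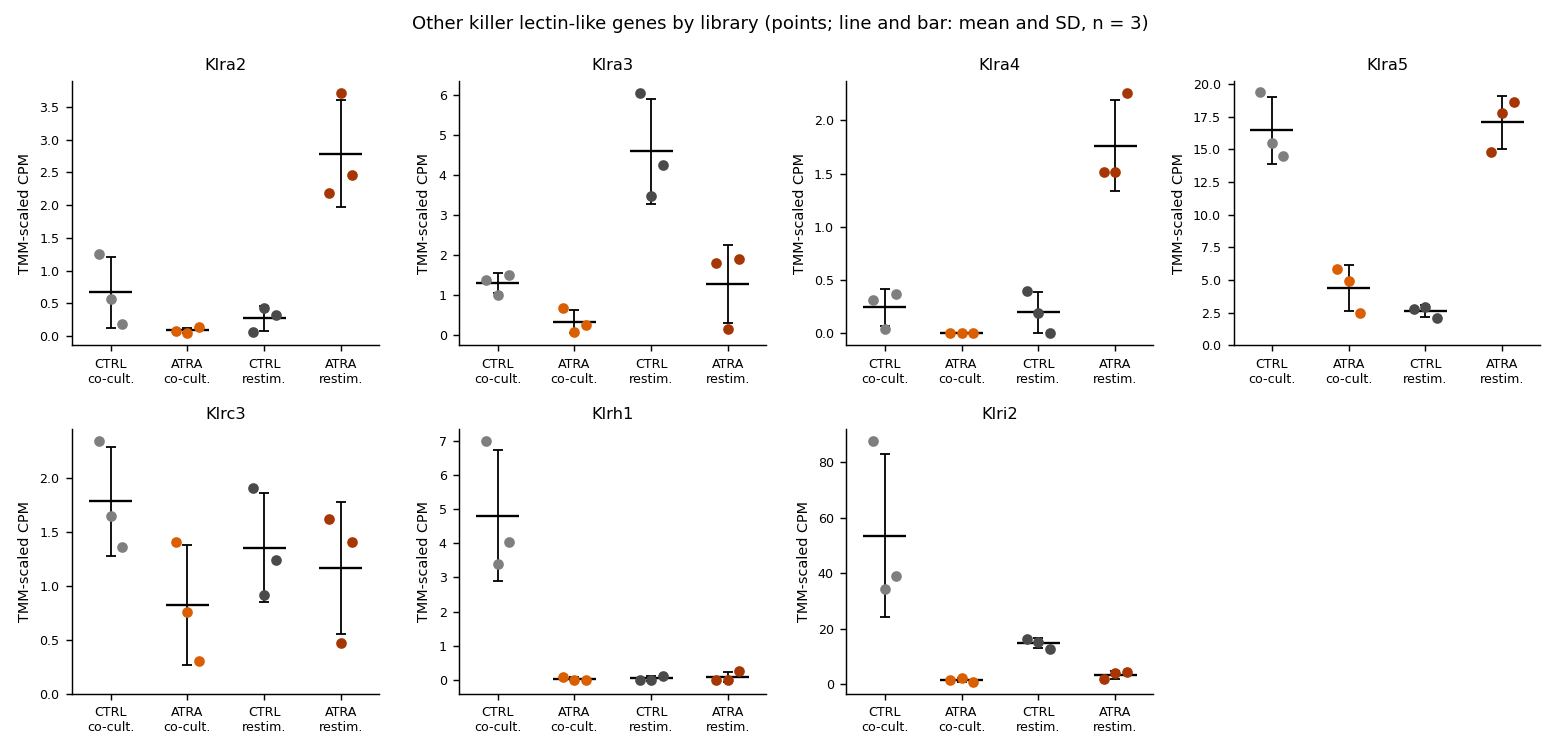
TMM-scaled CPM (vertical axes, linear) of the 7 other killer lectin-like genes tested in either ATRA comparison, by library (points), with mean and SD. Klri2 and Klrh1 are lower in ATRA than in CTRL co-culture libraries, and Klra5 has 14.8 to 18.7 CPM in restimulated ATRA libraries against 2.09 to 2.93 CPM in restimulated CTRL libraries.

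Of 22 adaptor and signalling genes downstream of these receptors, 7 of 20 tested were higher and 4 lower after co-culture (median 0.20, all genes 18.1% and 15.5%), led by Plcg2 (1.06), Pik3cd (0.85) and Inpp5d, the SHIP1 phosphatase (0.94). After restimulation 10 of 21 were higher and 6 lower (median 0.31, all genes 31.8% and 30.8%), led by decreases of Ptpn6, the SHP-1 phosphatase recruited by inhibitory receptors (-1.25), Sh2d1a (-1.92) and Vav2 (-2.10). Hcst and Tyrobp were singled out for their role after their values were seen. Hcst, the DAP10 adaptor of NKG2D, stood at 5.33 ± 3.04 CPM in restimulated CTRL and 12.0 ± 1.11 CPM in restimulated ATRA libraries (1.17, SE 0.33, adjusted p = 0.0124), opposite in direction to Klrk1. Tyrobp, the DAP12 adaptor of NKG2C, did not exceed 0.624 CPM in any library.

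Of 19 ligand genes, 8 were tested in each state, with 4 higher and 0 lower after co-culture (median 0.92) and 1 higher and 3 lower after restimulation (median -0.61). H2-T23, whose product Qa-1 binds CD94 with NKG2A or NKG2C, ranged from 168 to 211 CPM over restimulated CTRL libraries and from 476 to 480 CPM over restimulated ATRA libraries (1.31, SE 0.08, adjusted p = 4.3e-08). After co-culture it stood at 403 ± 41.3 and 359 ± 50.9 CPM (adjusted p = 0.359). Cdh1, the E-cadherin ligand of KLRG1, was higher in ATRA cells after co-culture (0.827 ± 0.117 and 39.9 ± 24.7 CPM, adjusted p = 0.00118). After restimulation the CTRL libraries had 2.47, 3.18 and 20.2 CPM and the ATRA libraries between 0.157 and 0.251 CPM (log2 fold change -5.32, SE 1.24, adjusted p = 0.0137), and without the high CTRL replicate 3 the value was -3.71 (adjusted p = 9.3e-05). Cdh1 passed the filter in restimulated cells only through CTRL libraries. Its call there, and its part in the numbers called for this list, support nothing. Ulbp1, a ligand of NKG2D, was lower after restimulation (-1.17), as was Clec2i (-1.56), and H2-K1 (1.03) and H2-D1 (0.70) were higher after co-culture.

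Among 21 transcription factors of effector and NK-like T cells, 9 of 19 tested were higher and 4 lower after co-culture (median 0.71, all genes 18.1% and 15.5%), and 10 of 19 were higher and 5 lower after restimulation (median 0.43, all genes 31.8% and 30.8%). The T-box genes Tbx21 (-1.36, adjusted p = 0.00129) and Eomes (-1.55, adjusted p = 0.00133) fell after co-culture, and Lef1, a factor of naive and memory cells, rose (1.00). After restimulation Zeb2, a factor of terminal effector cells, rose from 116 ± 9.85 to 301 ± 7.72 CPM (1.37, adjusted p = 1.3e-08), Bcl6 rose (2.57) and Lef1 fell (-1.78). Of 33 other NK receptor and NK-like genes, 7 of 28 were higher and 9 lower after co-culture (median 0.07), led by Xcl1 (-8.72), Crtam (-3.72) and Pilrb1 (2.97), and 13 of 29 higher and 9 lower after restimulation (median 0.60), led by Il18r1 (-5.85), Xcl1 (2.23) and Itga2 (2.96).

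Markers of other cell types were read beside these genes. After co-culture the sum of the 9 NK cell markers in that table was 123 to 146 CPM for CTRL libraries and 119 to 136 CPM for ATRA libraries. After restimulation the sum of all 10 was 43.0 to 71.6 CPM for CTRL libraries and 173 to 195 CPM for ATRA libraries, the group in which Klra7 and Klrg1 were highest. Adamts14 had the highest mean of these markers in every group (24.7 to 121 CPM over all libraries), joined in restimulated ATRA cells by Itga2 (69.3 to 83.9 CPM). Kit contributed 11.7 to 46.6 CPM in ATRA co-culture libraries and up to 19.2 CPM in restimulated CTRL libraries. Ncr1 was at 0 in all restimulated ATRA libraries and Tyrobp at most at 0.105 CPM there. Of the tested NK markers 3 of 7 were higher and 2 lower after co-culture, with Adamts14 (-0.62), Cd7 (2.86) and Kit (3.65) leading, and 6 of 8 higher and 0 lower after restimulation, with Sh2d1b1 at 3.38. The part of other cells in the member differences was not tested.

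Of the CD8 T cell markers 2 of 12 were higher and 3 lower after co-culture and 5 of 14 higher and 3 lower after restimulation, and Cd3e, Cd8a and Cd8b1 stood at 184 ± 3.52, 151 ± 2.36 and 143 ± 0.871 CPM in restimulated ATRA libraries. B cell markers gave 1 higher and 1 lower of 3 tested after co-culture and 6 higher of 6 after restimulation, with Ms4a1 at 0 in all restimulated CTRL libraries and at 2.69 ± 0.515 CPM in restimulated ATRA libraries. CD4 T cell markers, which activated CD8 T cells share in part, gave 4 higher and 1 lower of 8 and 3 higher and 0 lower of 6, with Cd4 itself at most at 1.22 CPM. Monocyte and macrophage markers gave 2 higher and 1 lower of 3 and 1 higher and 0 lower of 2, and dendritic cell markers 1 higher and 2 lower of 5 in each state. GL261 glioma markers gave 3 higher and 2 lower of 6 and 4 higher and 1 lower of 8, with most of their sum from Vim (723 to 1478 CPM), a gene that T cells also express, and erythroid markers were not tested, at a sum of at most 1.05 CPM.

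For the 4 members with a mean of at least 5 CPM, the genes with the most similar profile were taken among 9357 genes by Pearson r of log2(CPM + 1) over 12 libraries, each table centred on its own mean, as a description without a test. For Klrk1 these were Pclaf (0.993), Esco2 (0.991) and Pcna (0.991), genes of DNA replication and cohesion. For Klrd1 they were Cblb (0.991), an ubiquitin ligase that restrains T cell activation, and Itgb1 (0.974). For Klrc1 they were Serpinb9b (0.993), of a family of granzyme B inhibitors, Gramd1b (0.987) and Tmem19 (0.983), and for Klrc2 they were Eloc (0.980), Tmem19 (0.968) and Serpinb9b (0.968). Among the members themselves r was 0.963 for Klrc1 with Klrc2, 0.924 for Klrk1 with Klrd1 and 0.393 for Klrk1 with Klrc1. The points share libraries and the group differences above, so these values restate the pattern over groups.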

How the data were processed

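RNA of sorted cells was measured in 12 libraries from a stranded total RNA kit. The authors deposited raw counts by gene symbol, separately for co-cultured and restimulated libraries. For restimulated libraries they also deposited TPM. The submitters' processing notes name STAR 2.7.11b, Salmon 1.10.3, cutadapt 5.0, build mm39 and DESeq2 1.42.1, without their roles, the strand setting or the annotation. In the co-culture data no gene summed to less than 10. Among 35588 entries of the restimulated data, 16386 were 0 throughout and 32 repeated a symbol, of which the entry with the largest total was kept. The columns of the TPM table show the treatment only and were used as replicates of their group.

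Counts were tested with edgeR 4.0.16 in R 4.3.3 (TMM, filterByExpr, robust quasi-likelihood fit). ATRA was compared with CTRL within each table, and the interaction and the changes with restimulation were fitted on 12 libraries and shared genes, without a batch term. SEs come from the coefficient and its F. Alternatives were RLE size factors, DESeq2 1.42.0, no filter, the replicate block, each library left out, a shared spread, and limma 3.58.1 on log2(TPM + 1) and log2(TPM + 0.1) for genes with at least 1 TPM in 3 libraries. The fit was tested on simulated data with 200 changed genes. For the co-culture comparison it recovered 49 of 98 genes changed by 1 on the log2 scale and 85 of 98 changed by 2, with 10 false calls. For the restimulated comparison it recovered 72 of 97 and 93 of 98, with 19 false calls. Many changes of the smaller size were thus missed, most of all after co-culture. Because the labels state shared batches, replicate numbers pair CTRL and ATRA libraries of a state; deviations of same-numbered libraries from group means correlated at 0.09, -0.03 and 0.05 in co-cultured and -0.03, -0.12 and 0.08 in restimulated cells. No 2 libraries were alike within sampling noise (smallest chi-square per degree of freedom 3.86).

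The members and lists were chosen with earlier results of these data known. All 8 members were named, and from each other list the 3 called genes with the smallest adjusted p in an ATRA comparison; others are marked. For likeness, the 3 genes with the largest r were named, except 1 that is not reported here. Promoters come from RefSeq GRCm38.p6 and transcripts from GENCODE M21, not the authors' build, so no coordinate is set beside the counts.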

Additional observations from a re-analysis of the deposited data

Results flagged for a closer look

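The ATRA difference of 4 members was not the same in the 2 states by the interaction test, 4 of 8, where 49.2% of all tested genes were called, so this share does not set the members apart. For Klrc1 the difference after restimulation exceeded that after co-culture by 2.09 on the log2 scale, and for Klrc2 by 2.10. For Klrc1 every ATRA library was below every CTRL library after co-culture and above every CTRL library after restimulation, while Klrc2 overlapped after restimulation. For Klre1 the value was 2.44, with ATRA libraries lower in both states, and for Klra7 it was 2.01, where the co-cultured libraries held 3 to 16 counts each and the gene passed the filter only through restimulated libraries. Groups of 3 libraries are too small for a test of single outlying libraries.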

How the results depend on the processing

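Over 39 member results and 586 recomputed values, 537 kept their direction and side of the threshold or were uncalled in both, 33 lost a call, 16 gained a call and 0 changed the direction of a call. The number of members called ranged from 3 to 5 after co-culture (4 as reported), from 5 to 6 after restimulation (5), from 3 to 5 for the interaction (4) and from 4 to 6 for restimulation in ATRA cells (5). For restimulation in CTRL cells it was 5, 3 with the replicate block (here the replicate number, whose batch labels differ between states), and 3 to 6 with single libraries left out. Among all genes, calls after co-culture numbered 4071, 1613 to 5617 with single libraries left out (1772 without CTRL replicate 2, 1613 without CTRL replicate 3, 2226 without ATRA replicate 2), and 7980 without CTRL replicate 1 and ATRA replicate 3 together, an alternative chosen after seeing the data that narrows the spread by its construction. Beside the values given with the results, the replicate block ended the CTRL restimulation calls of Klre1 (-1.54) and Klrg1 (2.08), and it changed no other call of a member. Counting error limits Klrg1, Klra7 and Klrb1c after co-culture, which had at most 27 counts in any library.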
